A study of Mus musculus with 4 samples.

Results

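Dppa2, Dppa3, Dppa4, Dppa5a and Tcl1 are 5 genes that mark pluripotent cells and early embryos of the mouse, and their RNA was followed here in mouse embryonic stem cells (mESCs) with and without the chromatin protein Npac. They were taken by gene name from the 56748 genes listed in the deposited tables, and all 5 had enough reads to be among the 18157 genes tested. The cells were E14, an established mESC line, kept without feeder cells on gelatin in medium with serum and the cytokine LIF. WT1 and WT2 were libraries of wild-type (WT) cells. KO1 and KO2 were libraries of 2 clonal knockout (KO) lines, made with CRISPR/Cas9 guides against exon 3 of Npac and puromycin selection, with 1 library for each line. The comparison asks how the RNA of the 5 genes differed after loss of Npac. Nothing in the labels says that WT1 and WT2 came from separate cultures, so the spread between them may be technical, and a difference between KO and WT cannot be told apart from one between clones.

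The 5 genes are of 4 kinds. Dppa2 and Dppa4 are neighbouring genes for related nuclear proteins with a SAP domain. The proteins bind DNA as a pair, sit at CpG-rich promoters of developmental genes and switch on Dux and, through it, genes of the 2-cell embryo. Dppa3, also called Stella or PGC7, is a maternal protein of the egg and a marker of primordial germ cells, which keeps the methylation factor Uhrf1 away from chromatin, and in serum cultures it is known to be made by only some mESCs. Dppa5a, also called Esg1, encodes an RNA-binding protein with a KH domain. Tcl1 encodes a small cytoplasmic protein that binds Akt kinases and enhances their activity, and in mESCs it is a known target of Oct4 that aids self-renewal.

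The libraries held between 15850805 and 16965120 reads assigned to genes. Npac, listed as Glyr1, had 3961 and 3115 reads in WT1 and WT2 and 744 and 888 reads in KO1 and KO2, a log2 fold change of -2.14 ± 0.23 (SE, edgeR adjusted p = 0.00174), so the reads followed the labels without being absent from the KO lines. All 6 mESC markers examined had reads in every library. Summed over the 6, they stood at 3839 and 2946 CPM (reads scaled to library size) in WT and 2295 and 2135 CPM in KO, and 1 of them, Zfp42, was lower. Trophectoderm markers summed to 53.4 and 80.4 CPM in WT and 110 and 105 CPM in KO, with 1 of 6, Krt18, higher and Cdx2 at 0, 3, 0 and 16 reads in WT1, WT2, KO1 and KO2. Most of each sum came from Krt8 (27.1 and 38.6 CPM in WT, 50.2 and 44.1 in KO) and Krt18 (16.3 and 29.1 CPM in WT, 46.1 and 48.3 in KO). Eomes was at a log2 fold change of -0.16 and Hand1, also among the mesoderm markers, at 1.17, neither of them called. Mesoderm markers summed to 3.21 and 6.24 CPM in WT and 8.04 and 9.94 CPM in KO, with none of 5 called. Endoderm markers summed to 29.3 and 28.2 CPM in WT and 14.8 and 21.7 CPM in KO, with 1 of 6, Sox7, lower and Foxa2 at no more than 2 reads. The fall of this sum was that of Sox7, from 17.9 and 9.27 CPM in WT to 0.257 and 0.924 CPM in KO. Log2 fold changes were 0.48 for Gata4, 0.94 for Gata6, -0.18 for Sox17 and -0.71 for Dab2, none of them called. The sums for neural markers (91.6 to 103 CPM in WT, 95.5 to 108 CPM in KO, 1 of 5 lower) and fibroblast markers (44.1 to 82.8 CPM in WT, 56.0 to 67.7 CPM in KO, 1 of 6 higher, Col3a1 at 0 reads throughout) overlapped between the groups. Whether these other markers had a part in the results on the 5 genes was not tested.

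Levels per transcript length, as deposited FPKM (fragments per kilobase of transcript, scaled to library size), spread over more than 3 orders of magnitude among the 5 genes in WT. Dppa5a was far above the rest, with 2053 and 1979 FPKM in WT1 and WT2 and 2436 and 2408 FPKM in KO1 and KO2, which made it the 7th and 9th highest gene of the WT libraries and the 4th highest of both KO libraries. It supplied between 90.9% and 92.7% of the summed FPKM of the 5 genes in every library. In WT the order below it was Dppa4, Tcl1, Dppa2 and Dppa3. The ranges of Dppa4 and Tcl1 overlapped there, whereas the other neighbours in the order did not. In KO the order below Dppa5a became Dppa4, Dppa2, Tcl1 and Dppa3, and the last 3 could not be put in an order beyond their spread, since Tcl1 overlapped both Dppa2 and Dppa3. The ratio of Dppa3 to Tcl1 in FPKM was 0.0145 and 0.0143 in WT1 and WT2 and 0.960 and 0.816 in KO1 and KO2, so that genes far apart in WT stood at nearly the same level in KO. The plot of FPKM by library shows this convergence.

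**Figure D1:**
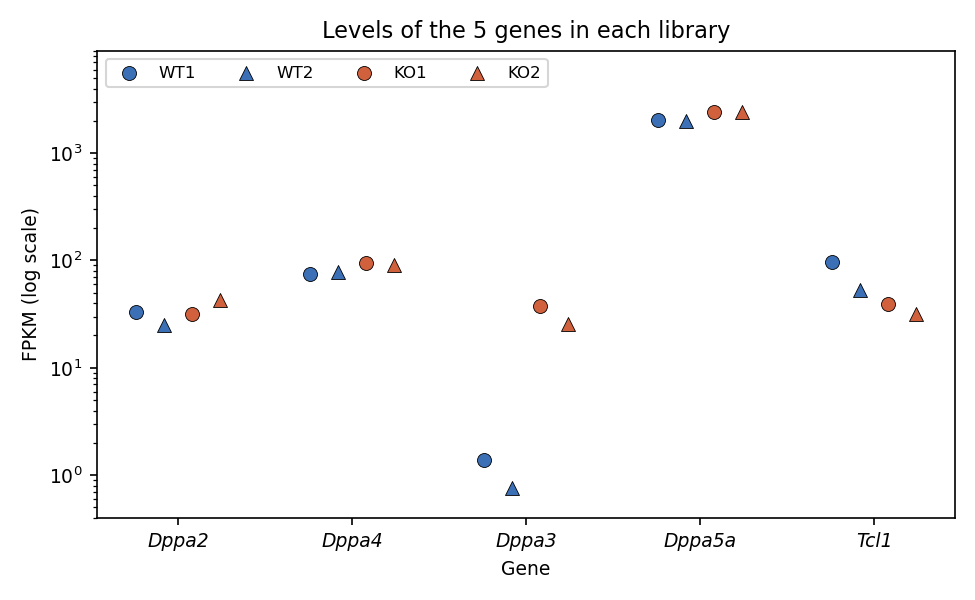
FPKM (vertical axis, log scale) of the 5 genes (horizontal axis) in WT1 and WT2 (blue) and KO1 and KO2 (orange); circles are libraries numbered 1 and triangles libraries numbered 2. Dppa3 moved from 1.39 and 0.763 FPKM in WT to 37.9 and 25.8 FPKM in KO, Tcl1 from 95.8 and 53.2 to 39.5 and 31.6, and the other 3 genes shifted little on this scale.

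Of the 5 genes, 1 was called higher in KO (Dppa3), 1 was called lower (Tcl1) and 3 were not called (Dppa2, Dppa4 and Dppa5a). A gene was called where its fold change was above 1.5 and its edgeR adjusted p below 0.05. By this rule 21.7% of all tested genes were called, 10.7% as lower and 11.0% as higher, and with 5 genes the count of 2 calls is not set apart from that background. The plot of fold changes sets the 5 genes side by side with their intervals.

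**Figure D2:**
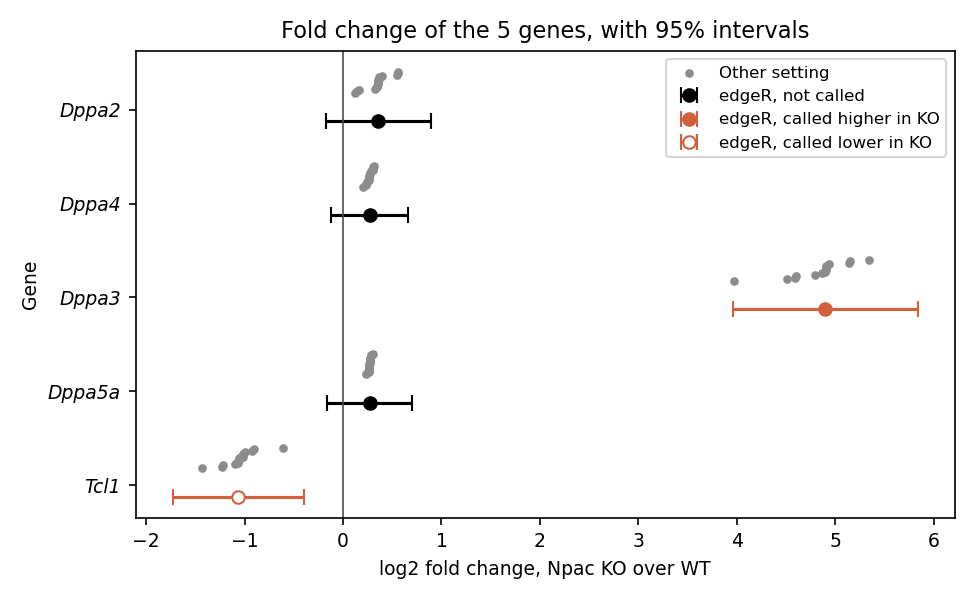
Log2 fold change of KO over WT (horizontal axis) for the 5 genes. Large points with bars give the edgeR estimate and its 95% interval (filled orange, called higher; open orange, called lower; black, not called), and small grey points give the estimates under other settings or with a library left out. Dppa3 lies at 4.90 with grey points from 3.98 to 5.34, Tcl1 at -1.06 with grey points from -1.43 to -0.61, and the intervals of Dppa2, Dppa4 and Dppa5a include 0.

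Dppa3 went from close to absent in WT to a clear presence in KO. It had 19 and 12 reads in WT1 and WT2 and 528 and 405 reads in KO1 and KO2. Scaled for depth, this was 0.965 ± 0.394 CPM in WT and 28.7 ± 7.47 CPM in KO (mean ± SD, n = 2 each). The KO libraries lay far above the WT libraries, and even the lower KO library was 18.8 times the higher WT library. The log2 fold change was 4.90 ± 0.41 (SE, edgeR adjusted p = 0.000704), with a 95% interval from 3.96 to 5.84, that is 15.5-fold to 57.1-fold higher. Among all tested genes only 99 called genes had a larger rise. By FPKM the gene moved from ranks 12996 and 15388 of the listed genes in WT1 and WT2 to ranks 1502 and 2156 in KO1 and KO2. Each KO line showed the rise on its own, with log2 differences from WT of 5.14 in KO1 and 4.60 in KO2, and the call was kept with any library left out, between 4.51 and 5.34. In bulk RNA, more cells with Dppa3 and more Dppa3 RNA per cell cannot be told apart.

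The table places Dppa3 (ENSMUSG00000046323) on the plus strand of chromosome 6, from 122603369 to 122607231. The labels name the mm10 build, but only 2.83% of the 52073 genes shared with the GENCODE M21 annotation of that build (GRCm38) have the same start and end, and none of the 5 genes does although all 5 have the same span, so positions quoted from the deposited table belong to a build not identified here. Its protein is short, with 150 codons over 4 exons. Because the rise rests on reads that must be told apart from near-identical copies, the first 150 coding bases are shown, from GENCODE M21, with the start codon leading and all bases in lower case:
Dppa3: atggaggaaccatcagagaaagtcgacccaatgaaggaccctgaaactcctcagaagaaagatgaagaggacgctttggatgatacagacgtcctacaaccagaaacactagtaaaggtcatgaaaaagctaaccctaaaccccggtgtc
The processed pseudogene Dppa3-ps shares 98.2% of 451 aligned bases with Dppa3, and 2 other pseudogenes match at 90.3% and 91.1%. All 3 had 0 reads in all 4 libraries, which allows up to 3 reads each at this depth. In the deposited counts every read of this family was on Dppa3 itself.

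Tcl1 moved the other way, and by less. It had 2719 and 1731 reads in WT1 and WT2 and 1138 and 1026 reads in KO1 and KO2. In CPM the libraries stood at 178 and 99.1 in WT and 73.2 and 59.3 in KO. Both KO libraries lay below both WT libraries, as in 32.5% of all tested genes. WT1 and WT2 differed from each other by more than KO1 and KO2 did. The KO mean of 66.2 ± 9.85 CPM was 47.8% of the WT mean of 139 ± 55.8 CPM (SD, n = 2 each). On the log2 scale the fold change was -1.06 ± 0.29 (SE, 95% interval -1.73 to -0.40, edgeR adjusted p = 0.0361), and 1413 called genes had a larger fall. The size of the fall depended on which WT library was used, since it was -0.61 without WT1 and -1.43 without WT2, both called by edgeR. Without KO2 the fall was -0.91 and was no longer called (edgeR adjusted p = 0.172), and on the FPKM values it was -1.01 with an adjusted p of 0.0556 by limma.

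Tcl1 (ENSMUSG00000041359) lies on the minus strand of chromosome 12, from 105183009 to 105189052 in the deposited table, and its longest transcript in GENCODE M21 has 4 exons and 116 codons. No other transcript matched it at 90% identity over 100 bases, so its reads have no near-identical copy to share with. Its promoter was the only one of the 5 found among the RefSeq promoters used (GRCm38.p6). The 250 bases before the transcription start, at chr12:105222738-105222987 on the minus strand, are shown. Whether any factor acts through them was not tested. Capitals mark the letters CACCC, a KLF-type box, on either strand and CCGCCC, a GC box:
Tcl1 promoter: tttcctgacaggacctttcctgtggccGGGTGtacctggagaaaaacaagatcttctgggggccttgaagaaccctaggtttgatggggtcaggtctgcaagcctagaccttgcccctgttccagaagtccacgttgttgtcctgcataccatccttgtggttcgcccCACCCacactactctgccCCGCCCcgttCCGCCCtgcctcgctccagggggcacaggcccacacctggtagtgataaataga
CACCC was found once in the sequence as written and once on its opposite strand, and CCGCCC 2 times as written. These motifs do not overlap one another. CACCC was present in 57.5% and CCGCCC in 35.7% of 32851 promoters, so neither is rare. These shares are for windows of 300 bases, longer than the stretch shown. The letters AAGGTCA, ATGCAAAT and TATAAA, searched on both strands, had no match in the Tcl1 window, against 4.72%, 1.74% and 13.6% of all promoters that hold them. The 300-base window, which adds 50 bases after the start, held 11 CpG dinucleotides at 56.7% GC, compared with medians of 7 CpG and 52.7% GC over all promoters.

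Dppa2 and Dppa4 were not called. Dppa2 had 1251 and 1075 reads in WT1 and WT2 and 1214 and 1830 reads in KO1 and KO2. This came to 81.9 and 61.5 CPM in WT and 78.1 and 105.7 CPM in KO, with the lower KO library inside the WT range and only KO2 above it. The log2 fold change was 0.36 ± 0.23 (SE, edgeR adjusted p = 0.292), and its 95% interval, from -0.17 to 0.89, allowed anything from a small fall to a 1.85-fold rise. Left-out libraries moved it between 0.14 (without KO2) and 0.55 (without KO1 or without WT1), and in no case was it called.

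Dppa4 was more even between replicates. It had 1914 and 2307 reads in WT1 and WT2 and 2462 and 2630 reads in KO1 and KO2, or 125 and 132 CPM in WT and 158 and 152 CPM in KO. The lower of the KO libraries exceeded the higher of the WT libraries, which 33.2% of all tested genes also showed. The log2 fold change was 0.27 ± 0.17 (SE, 95% interval -0.12 to 0.66, edgeR adjusted p = 0.284), and the interval reached at most a 1.58-fold rise. The ratio of Dppa4 to Dppa2 in FPKM was 2.25 and 3.16 in WT1 and WT2 and 2.99 and 2.12 in KO1 and KO2, overlapping between the groups. The starts of Dppa4 (ENSMUSG00000058550, chromosome 16, 48104096 to 48114600) and Dppa2 (ENSMUSG00000072419, chromosome 16, 48124271 to 48140086) are 20175 bases apart on the plus strand in the deposited table. Both have processed pseudogenes at over 90% identity, 6 for Dppa2 and 2 for Dppa4. Reads counted on these copies came to 2.51% to 5.76% of the Dppa2 reads and 2.59% to 4.42% of the Dppa4 reads, and adding them left the log2 fold changes at 0.35 and 0.26.

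Dppa5a, the most abundant of the 5, had 19538 and 21590 reads in WT1 and WT2 and 23519 and 26263 reads in KO1 and KO2. Replicates were close, at 1258 ± 30.8 CPM in WT and 1515 ± 3.04 CPM in KO (mean ± SD, n = 2 each). Both KO libraries lay above both WT libraries, as in 33.2% of all tested genes. The log2 fold change of 0.27 ± 0.18 (SE, 95% interval -0.16 to 0.70) did not pass (edgeR adjusted p = 0.324). Left-out libraries gave values from 0.24 to 0.28, and no setting called the gene. It lies on the minus strand of chromosome 9, from 78274334 to 78275459 in the deposited table (ENSMUSG00000060461).

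The genome holds many pseudogene copies of Dppa5a. Transcripts of 9 other genes matched it at 90% identity or more over at least 100 bases. One of them, Pigp, is a separate protein-coding gene and not a copy, with a matching stretch of 417 bases at 95.9% identity. It had 375 and 470 reads in WT1 and WT2 and 203 and 246 reads in KO1 and KO2. The other 8 are pseudogenes. Reads were counted on 4 of the pseudogenes and came to 0.148% to 0.624% of those on Dppa5a. The 8 include Dppa5b and Dppa5c, whose annotated transcripts of 348 bases are identical to each other. A read lying wholly within those 348 bases cannot be placed on one rather than the other by sequence. The deposited counts of the 2 pseudogenes nonetheless differ, and how reads were divided between them was not tested. The first 110 coding bases of Dppa5a and the same stretch of both pseudogenes are shown because they differ at few positions, while over the whole alignment 309 of 348 bases are identical (88.8%, with 6 gap bases) (GENCODE M21, capitals mark the 3 bases at which the pseudogenes differ from Dppa5a):
Dppa5a: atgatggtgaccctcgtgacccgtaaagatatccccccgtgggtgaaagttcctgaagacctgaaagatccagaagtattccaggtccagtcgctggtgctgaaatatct
Dppa5b and Dppa5c: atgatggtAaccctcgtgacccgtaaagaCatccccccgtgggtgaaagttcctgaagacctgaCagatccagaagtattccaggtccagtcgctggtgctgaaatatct
Dppa5c had 27 and 87 reads in WT1 and WT2 and 42 and 160 reads in KO1 and KO2, and Dppa5b had 29 reads in WT2 and 0 in the other 3 libraries. Within each group the libraries numbered 2 had more Dppa5c reads than those numbered 1, and the log2 fold change of 0.82 was not called (edgeR adjusted p = 0.417, -0.31 without KO2 and 1.75, called, without WT2). Adding the 8 matching pseudogenes to Dppa5a left its log2 fold change at 0.27.

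Relatives of the 5 genes had few reads. Of 12 named relatives (Dppa1, the Tcl1b genes and Mtcp1, and the KH-domain genes related to Dppa5a), 9 had any read and 3 had enough reads to be tested. The only call was Khdc3, a subunit of the maternal complex under the egg's membrane, with 34 and 51 reads in WT1 and WT2 and 126 and 104 reads in KO1 and KO2 (log2 fold change 1.45 ± 0.40, SE, edgeR adjusted p = 0.0391). Its call was lost without either KO library (1.21 without KO1 and 1.67 without KO2). Ooep, another subunit of that complex and a neighbour of Dppa5a, had 1758 and 1526 reads in WT and 1858 and 1613 reads in KO (log2 fold change 0.07, edgeR adjusted p = 0.839). Mtcp1, the Tcl1 relative with the most reads, stood at 237 and 122 reads in WT and 145 and 120 in KO (log2 fold change -0.47, edgeR adjusted p = 0.464, but -0.94 and called without WT2). Tcl1b4, which was too low to test, had 11 and 3 reads in WT and 0 in both KO libraries.

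Genes of the 2-cell embryo, which Dppa2 and Dppa4 are known to activate through Dux, were called lower in KO in 5 of 15 cases, while Dppa2 and Dppa4 themselves were not called. Of 17 named genes, 16 were in the tables and 15 were tested, and 5 were called lower, beside 10.7% of all tested genes, and 0 higher by edgeR (12 lower and 0 higher at an unadjusted p under 0.05, and 9 lower and 0 higher by DESeq2). The median log2 fold change of the 15 was -2.40, beside 0.0015 over all tested genes, and in 12 of the 15 both KO libraries lay below both WT libraries, as in 32.5% of all tested genes. The exception in direction was Tcstv1, with 2 and 13 reads in WT and 4 and 30 reads in KO. The lowest among the called genes were Usp17ld, a deubiquitinase gene (23 and 126 reads in WT, 1 and 8 in KO, log2 fold change -3.98, edgeR adjusted p = 0.0273), and Sp110 (36 and 111 reads in WT, 2 and 7 in KO, -3.97, edgeR adjusted p = 0.0119). Tcstv3, named after its values were seen, followed at -3.41 (edgeR adjusted p = 0.0454), then Zfp352, a zinc finger gene of the 2-cell stage, at -3.30 and Usp17lc at -2.96. Usp17ld, Sp110 and Zfp352 had under 10 reads in both KO libraries. They passed the read filter only through WT, the group where they were high, so their calls were favoured by the filter. Without KO1, Tcstv3 (-2.58) and Zfp352 (-2.97) were not called (edgeR adjusted p = 0.0712 and 0.0544). The size of these falls rested on single libraries. Without WT2 or without KO2 it was -2.45 or -5.91 for Usp17ld, -2.02 or -6.05 for Tcstv3, -1.52 or -4.05 for Usp17lc, -3.09 or -4.99 for Sp110 and -2.32 or -3.77 for Zfp352. On log2(FPKM + 1) only Zfp352 of the 5 was called by limma (adjusted p = 0.0447). Over the whole list that fit still called 5 genes lower, so it also called genes outside these 5. Dux itself, listed as Duxf3, had 7 and 9 reads in WT and 1 and 6 reads in KO and was too low to test.

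Replicates of these genes differed widely. Summed over the 15 genes, the level was 55.6 and 128 CPM in WT1 and WT2 and 5.40 and 38.8 CPM in KO1 and KO2. WT2 was above WT1 in 14 of the 15 genes and KO2 above KO1 in 15, as the plot of these genes by library shows. The number called therefore moved with the libraries used, from 3 without KO1 to 14 without KO2, 13 without WT1 and 11 without WT2. It was 0 when every library had to hold 10 reads, since most genes of the list then dropped out. The Zscan4, Usp17l and Tcstv genes are families of near-identical copies, so the division of reads among their members is uncertain. The 15 genes are therefore not 15 separate observations. The counts and the median given beside all tested genes only describe the list.

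**Figure D3:**
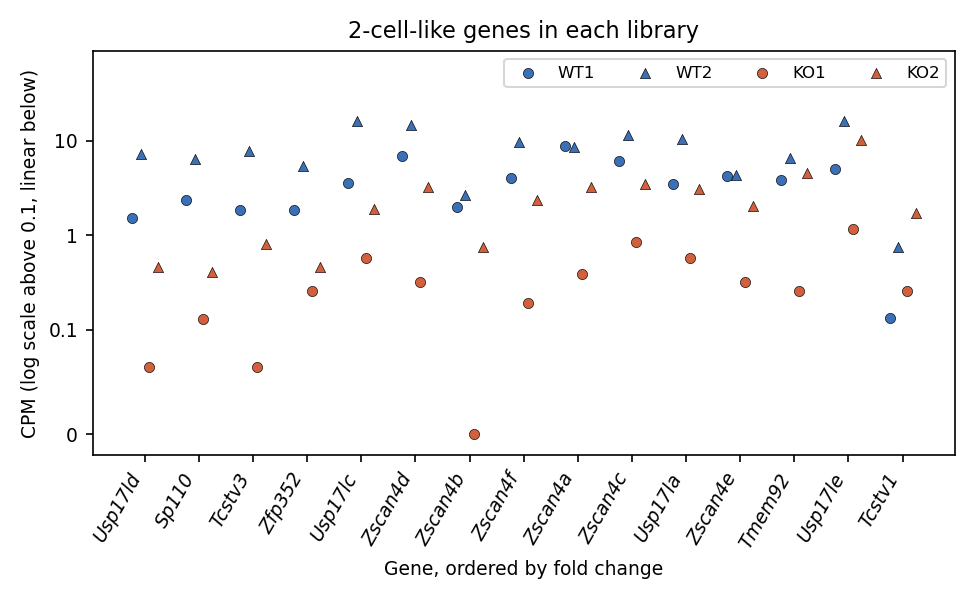
CPM (vertical axis, log scale above 0.1 and linear below) of the 15 tested 2-cell-like genes, ordered by fold change (horizontal axis), in WT1 and WT2 (blue) and KO1 and KO2 (orange); circles are libraries numbered 1 and triangles libraries numbered 2. KO1 is the lowest library in 14 genes, and WT2 lies above WT1 in 14.

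Of 12 genes of DNA methylation, listed as context for Dppa3, 1 was called lower and 2 higher, with a median log2 fold change of 0.12. The 3 calls are a share close to the 21.7% of all tested genes called. Uhrf1, which Dppa3 binds, had 6217 and 6767 reads in WT1 and WT2 and 7319 and 7689 reads in KO1 and KO2 (log2 fold change 0.20, edgeR adjusted p = 0.438), and Dnmt1, the maintenance methyltransferase that Uhrf1 recruits, was at 0.11 (edgeR adjusted p = 0.703). Dnmt3a, a de novo methyltransferase, rose from 1125 and 984 reads to 2728 and 3785 reads (log2 fold change 1.60 ± 0.22, SE, edgeR adjusted p = 0.00394). Tdg, a glycosylase that removes oxidised methylcytosine, rose from 565 and 402 reads to 1657 and 1584 reads (1.72 ± 0.26, SE, edgeR adjusted p = 0.00538). Tet2, a methylcytosine oxidase, fell from 5151 and 2993 reads to 1423 and 1516 reads (-1.51 ± 0.31, SE, edgeR adjusted p = 0.0144). Each of these 3 calls was kept with any library left out, although Tet2 was at -0.96 without WT1.

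Of 23 tested genes of the Akt pathway, through which Tcl1 acts, 1 was called lower and 1 higher, with a median log2 fold change of -0.02. Over all tested genes 10.7% were called lower and 11.0% higher. Pik3cd, a catalytic subunit of the lipid kinase upstream of Akt, rose from 329 and 441 reads in WT to 936 and 937 reads in KO (log2 fold change 1.29 ± 0.20, SE, edgeR adjusted p = 0.00622). Foxo3, a transcription factor that Akt holds out of the nucleus, fell from 2019 and 2037 reads to 1189 and 1426 reads (-0.65 ± 0.18, SE, edgeR adjusted p = 0.0384), and it was not called without WT1 (-0.58), KO1 (-0.60) or KO2 (-0.69). The kinase genes Akt1 and Akt2 were at 0.43 and -0.04 and were not called (edgeR adjusted p = 0.122 and 0.890).

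Among 19 regulators of pluripotency, 9 were called lower and 1 higher in KO, beside 10.7% and 11.0% of all tested genes, with a median log2 fold change of -0.79. The lowest were Klf5 (23699 and 13460 reads in WT, 1559 and 2042 in KO, log2 fold change -3.41, edgeR adjusted p = 0.00142) and Zfp42 (14426 and 12181 reads in WT, 2084 and 2234 in KO, -2.64, edgeR adjusted p = 0.000704), both kept with any library left out. Klf2 was the one that rose (3308 and 2068 reads in WT, 5451 and 5256 in KO, 0.97, edgeR adjusted p = 0.0481), and its call was lost without KO1 (0.85) or KO2 (1.08). Stat3, which carries the LIF signal, was the mildest of those that fell (-0.74, edgeR adjusted p = 0.0265, not called without KO1 at -0.67 or KO2 at -0.80). Pou5f1, which encodes Oct4 and is a known activator of Tcl1, had 12823 and 12022 reads in WT and 9325 and 9315 in KO (-0.42, edgeR adjusted p = 0.157). The list shows that the fall of Tcl1 stood beside falls of other genes of the pluripotent state, whereas no Dppa gene was called lower.

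Germ cell markers, of which Dppa3 is the best known early one, were called in both directions, 3 of 14 lower and 3 higher, beside 10.7% and 11.0% of all tested genes, with a median log2 fold change of 0.24. Nanos3, a protector of primordial germ cells, rose from 20 and 11 reads in WT to 55 and 57 reads in KO (1.82 ± 0.53, SE, edgeR adjusted p = 0.0452, not called without KO1 at 1.76 or KO2 at 1.88). Tfap2c, a transcription factor of germ cell specification, rose from 775 and 553 reads to 2412 and 2321 reads (1.81 ± 0.25, SE, edgeR adjusted p = 0.00445). Tdrd9, of the piRNA pathway, fell from 230 and 532 reads to 47 and 159 reads (-1.89 ± 0.54, SE, edgeR adjusted p = 0.0433, not called without KO1 at -1.32). Sycp3, of the meiotic chromosome axis, fell from 803 and 679 reads to 163 and 277 reads (-1.78 ± 0.28, SE, edgeR adjusted p = 0.00642). The calls of Tfap2c and Sycp3 were kept with any library left out. The plot of the 6 lists shows each tested gene.

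**Figure D4:**
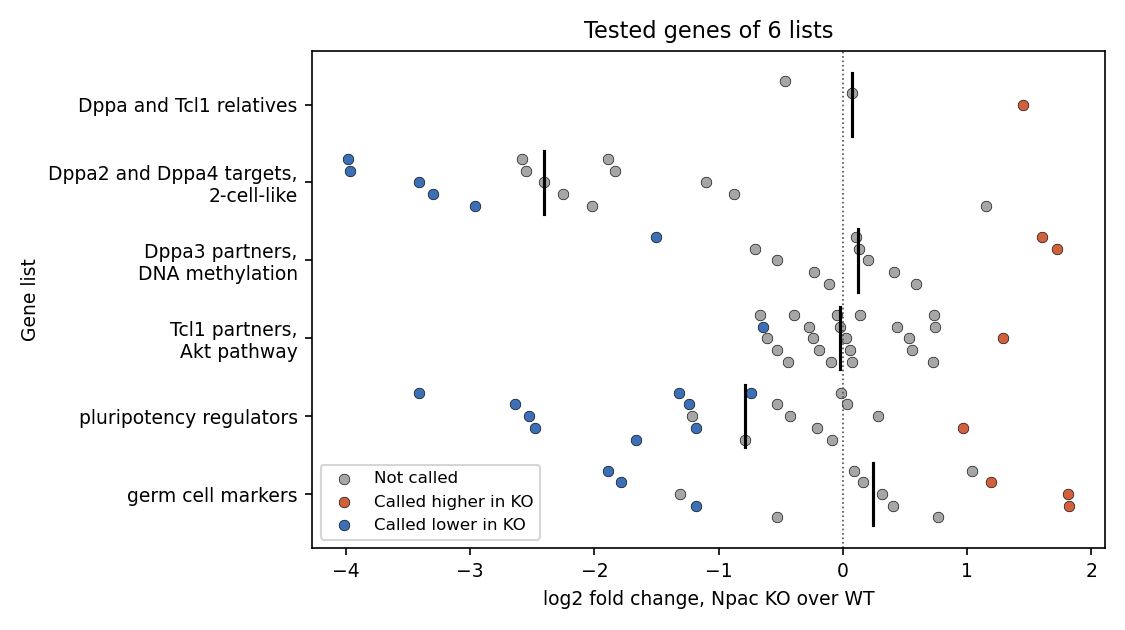
Log2 fold change of KO over WT (horizontal axis) of the tested genes of 6 lists (rows); each point is a gene (blue, called lower; orange, called higher; grey, not called), spread vertically for legibility, and the black bar is the median of the list. The 2-cell-like list has its median at -2.40 and the pluripotency list at -0.79, and the other 4 medians lie between -0.02 and 0.24.

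The chromosomal neighbours of the 5 genes were taken as the nearest 2 tested genes on each side, leaving 16 genes outside the 5. Of these, 3 were called lower, beside 10.7% of all tested genes, and the other 13 were not called. With 21.7% of all genes called in either direction, 3 of 16 is a share near the background. Next to Dppa3, whose start lies 21007 bases from that of Gdf3, a ligand of the TGF-beta family, Gdf3 had 51.3 and 18.2 CPM in WT1 and WT2 and 73.5 and 46.3 CPM in KO1 and KO2 (log2 fold change 0.79, edgeR adjusted p = 0.238). The Gdf3 libraries overlapped between the groups, and it was called where WT1 was left out (1.69) and with no filter on low counts (0.80). Next to Dppa2, Morc1, a germline gene, was not called (0.58, edgeR adjusted p = 0.0858), except without WT1 (0.70) and with no filter on low counts (0.59). Dzip3, farther on, fell from 139 and 104 CPM in WT to 47.9 and 67.8 CPM in KO (-1.07 ± 0.24, SE, edgeR adjusted p = 0.0192, not called without KO1 at -0.85).

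On the other side of Dppa4, 2130748 bases from it between starts, Ahcyl fell from 155 and 156 CPM in WT to 87.1 and 74.1 CPM in KO (-0.95 ± 0.18, SE, edgeR adjusted p = 0.0115, not called without KO1 at -1.08 or KO2 at -0.82). Near Tcl1, D430019H16Rik fell from 25.1 and 28.0 CPM to 11.2 and 15.0 CPM (-1.02 ± 0.25, SE, edgeR adjusted p = 0.0276, not called without KO1 at -0.84 or KO2 at -1.23). Tunar, which lies between Tcl1 and that gene, was not called (1.22, edgeR adjusted p = 0.115, called without WT2 at 1.91 and with no filter at 1.23). The genes beside Dppa3 and Tcl1 thus did not pass in the direction of their neighbour, apart from D430019H16Rik.

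Profiles over the 4 libraries were compared with those of 11088 protein-coding genes by the distance between log2 CPM values, each gene centred on its own mean. With 4 libraries in 2 groups such likeness is a description, and it follows the group difference for the genes that changed. Dppa3 had no close match, its nearest genes being Rpl30 (distance 0.476), Hsh2d (0.493) and Olig2 (0.503), all of which rose in KO, with log2 fold changes of 4.13, 4.49 and 6.38. In WT1 and WT2, Hsh2d had 18 and 8 reads and Olig2 had 2 and 3 reads. The distances and fold changes of Hsh2d and Olig2 thus rest on WT values near the floor. Rpl30, a ribosomal protein gene, has processed copies in the genome, so its count is uncertain. Tcl1 was followed closely by Amer1, a regulator of Wnt signalling (0.0466), the zinc finger gene Zfp59 (0.0535) and Bach1, a repressor of haem-responsive genes (0.0651), which shared its high WT1 value. Their log2 fold changes were -1.08, -1.13 and -1.08 (edgeR adjusted p = 0.0407, 0.0392 and 0.0354). Like Tcl1, these 3 were not called without KO2 (-0.94, -0.96 and -0.96), and Amer1 was also not called without KO1 (-1.21). None of the 3 was called on FPKM by limma (adjusted p from 0.0619 for Bach1 to 0.0959 for Amer1).

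The genes nearest to the other members were very close to them in profile, as many genes with small differences are. Those of Dppa2 were Mocos (0.0583), Fancb (0.0898) and Hnrnpa3 (0.0973). Dppa4 was nearest to Scrib (0.0318), Ndufb5 (0.0321) and Hps1 (0.0347). For Dppa5a they were 2700049A03Rik (0.00919), Lman1 (0.0243) and Cchcr1 (0.0271). None of these 9 genes was called in KO against WT.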

How the data were processed

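The deposited tables hold, for each of the 4 libraries, read counts per gene and FPKM. Per the labels, the authors used CASAVA, HISAT2 2.0.5 and featureCounts 1.5.0-p3 with mm10. The strand setting is not given in the sources used here, so overlapping antisense genes cannot be separated. None of the members is overlapped by another listed gene at its deposited position, so this limit concerns other genes. The FPKM values deposited are the counts per gene length over a scaled library size (15376100 to 17622300), so they are not independent of the counts. The counts were tested as deposited with edgeR 4.0.16 (R 4.3.3; filterByExpr, TMM, quasi-likelihood test, genotype as the one term), with Benjamini-Hochberg adjustment over 18157 genes; a call needs an adjusted p under 0.05 and a fold over 1.5. The common biological coefficient of variation was 0.235. CPM are counts scaled to library size with TMM. Intervals are at 95%. The script was tested on simulated data. The simulated replicates varied less than these libraries, and the changes were large and only in genes above a minimum of reads. That test therefore does not show how well small changes or genes with few reads are called.

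Alternatives were DESeq2 1.42.0, limma 3.58.1 on log2(FPKM + 0.1) and log2(FPKM + 1), other scalings and filters, protein-coding genes alone, a replicate block, each library left out, each KO line alone, and pseudogenes summed (summing every matching pseudogene was added after seeing the data). Where 1 library is left in a group, it is assumed to vary like the other group. Copies were found with blastn 2.17.0+ (at least 90% identity over 100 bases, GENCODE M21 transcripts). Profiles were compared on log2(CPM + 0.5) for genes with a mean of at least 100 reads. Named genes were the 5 members, Glyr1, at most the 2 lowest and 2 highest called genes of each list, 2 tested neighbours on each side and the 3 nearest profiles; other genes named for context (Uhrf1, Dnmt1, Akt1, Akt2, Pou5f1, Tcstv1, Tcl1b4, Duxf3, marker genes, Dppa5b, Dppa5c, Pigp, Tcstv3 and Dubr) were chosen after their values were seen. The members and lists were chosen with earlier results of these data known.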

Additional observations from a re-analysis of the deposited data

How the results depend on the processing

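Dppa3 was called higher in all 15 alternatives (3.98 to 5.34 on the log2 scale), and Dppa2, Dppa4 and Dppa5a were called in none, in 16, 16 and 17 alternatives. Dppa2 reached an edgeR adjusted p of 0.0319 without WT1, at a fold under 1.5. Tcl1 kept its direction in all 15 and lost its call in 5, namely FPKM with pseudocount 0.1 (-1.01) and 1 (-0.996), KO1 alone (-0.92), KO2 alone (-1.22) and without KO2; leaving out 1 library gave -1.43 to -0.61. The 5 genes thus held 0 lower calls under both FPKM fits, and 0 to 1 with a library left out. Over all genes, lower calls were 2994 and higher calls 3128 with the replicate block, and 821 to 3384 and 826 to 3571 with a library left out. The block kept every call on the 5 genes; the labels do not say that a number marks a shared batch, and the correlation of the differences between libraries 1 and 2 in WT and KO was 0.345 across genes.

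For the lists, relatives had 1 lower call with no filter and 0 to 1 lower and 0 to 1 higher with a library left out. The 2-cell-like list had 9 lower calls by DESeq2, 12 with no filter, 0 with at least 10 reads in every library, 14 with the block, 3 on FPKM with pseudocount 0.1, and 3 to 14 with a library left out. The list of DNA methylation genes had 2 lower calls with the block, and its number of lower calls also rose without WT1 and without WT2. The Akt list had 2, 3 and 4 higher calls by upper-quartile scaling, no filter and the block, and 0 to 5 lower and 1 to 5 higher with a library left out. The pluripotency list had 0 higher calls among protein-coding genes and under both FPKM fits, and 0 to 2 with a library left out. Germ cell markers had 1 lower call under both FPKM fits, 5 higher with no filter and with the block, and 1 to 4 lower and 1 to 7 higher with a library left out. Where few reads remain the filter decides which genes are tested; otherwise the cause was not tested. Direction turned with a library left out for Ooep (-0.13 to 0.26), Mtcp1 (-0.94 to 0.19) and Dppa5c (-0.31 to 1.75), none of which was called with all libraries; Mtcp1 was called at -0.94 and Dppa5c at 1.75, both without WT2. The 95% intervals of Dppa2, Dppa4 and Dppa5a reach a 1.85-fold, 1.58-fold and 1.62-fold rise, so differences of that size are not excluded. Calls of Gdf3 (0.92) and Tunar (1.28) were gained with the replicate block.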

Other observations

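Dubr, a long noncoding RNA whose name refers to Dppa2 (Dppa2 upstream binding RNA), lies 2390646 bases beyond the end of Dppa2 on chromosome 16 in the deposited table. It had 111 and 196 reads in WT1 and WT2 and 36 and 65 reads in KO1 and KO2. The log2 fold change was -1.60 (edgeR adjusted p = 0.0335). Both KO libraries lay below both WT libraries, as in 32.5% of all tested genes. It was not called without KO1 (-1.31) or without KO2 (-1.98), nor on FPKM with pseudocount 0.1 (-1.41). Dppa2 itself, described above, was not called. Dubr was chosen after its values were seen.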
